A study of Mus musculus and Oryctolagus cuniculus and Sus scrofa with 20 samples.

Results

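Pachytene and zygotene spermatocytes of the mouse were compared by their small RNAs, with 1 library a side, so 2 of the 20 libraries of the series enter the comparison and no difference has a replicate check. Both libraries were chosen by their labelled stage, and no measured value entered the choice. The pachytene cells came from wild-type C57BL/6 males at postnatal day 25 and the zygotene cells from wild-type C57BL/6 males at postnatal day 13, with no treatment in either group. Stage and mouse age therefore cannot be told apart, and the labels do not state how the cells were purified or whether animals were pooled. Total RNA went into an Illumina small RNA library, and the deposited values are counts of reads for each distinct read sequence, called a tag below. The pachytene library held 22785285 reads in 3713036 tags, of which 52.3% were read once. The zygotene library held 15317355 reads in 1215172 tags, of which 31.7% were read once. All tags were 17 to 41 nt long. In bulk libraries of this kind, fewer cells of a type and less RNA per cell cannot be told apart. Leptotene spermatocytes (day 9, 12247017 reads) and round spermatids (day 25, 23552284 reads), also wild type, served only to place the tags in the order of stages.

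Zygotene is the stage of the first meiotic division in which homologous chromosomes pair, and in pachytene they are fully paired and exchange DNA. PIWI-interacting RNAs (piRNAs) are germ-cell small RNAs that guide PIWI proteins. They mostly begin with U, read as T. When a PIWI protein slices a target, the new piRNA is offset so that an A tends to stand at the tenth base. Early germ cells of the mouse testis make piRNAs largely from messenger RNAs, often from their 3′ UTRs, and from transposons, whereas pachytene cells make them from long non-coding precursor transcripts whose transcription is driven by the factor A-MYB. The PIWI protein MILI carries shorter piRNAs, and MIWI, which appears at pachytene, carries longer ones. MicroRNAs (miRNAs) are shorter RNAs cut from hairpins, which find targets through a seed near their 5′ end.

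The tags that follow are examples of piRNA-sized reads from annotated genes of each stage, although most pachytene reads of this size lay in no annotated transcript. They are among the most-read tags that begin with T and lie in a single gene, with capitals marking the first and the tenth base and coordinates in GRCm38. From the pachytene library come a 27 nt and a 28 nt tag, then 3 tags of 29 to 30 nt.
1700001L05Rik (lncRNA, exon 3, chr15:83355242-83355268, minus strand): TacgaaattCcagtagactctgacttc
Gm21269 (lncRNA, exon 1, chr7:73824994-73825021, plus strand): TgtgaatttCaactgttggctccacagg
Gm21269 (lncRNA, exon 1, chr7:73824992-73825021, plus strand): TatgtgaatTtcaactgttggctccacagg
1700042G15Rik (lncRNA, exon 3, chr4:57361357-57361386, minus strand): TtgccaccgAgattcgagtgaagaatgaga
Gm21221 (lncRNA, exon 4, chr5:149803546-149803574, minus strand): TactgagaaAaaccttttttatccaagag
The 1700001L05Rik tag is also among the leading tags of the zygotene library. The other zygotene tags shown were picked because they lie in the 3′ UTRs of messenger RNAs.
Ppp1r7 (3′ UTR, exon 10, chr1:93367674-93367701, plus strand): TgcaaacctGagaacctgaattcaaatc
Gm4631 (3′ UTR, exon 5, chr2:175322694-175322720, minus strand): TgattgaccAcgaagaacagcagcagc
Tsc1 (3′ UTR, exon 23, chr2:28687736-28687765, plus strand): TtctgtgagAataccagctgctttgacagt
Rhbdd2 (3′ UTR, exon 4, chr5:135645289-135645317, plus strand): TaagtattcCaatacaggtgattcctgac

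The 1700001L05Rik tag had 9416 reads in pachytene and 2306 in zygotene and was among the most-read tags of both libraries. The 30 nt Gm21269 tag had 30803 reads in pachytene and 17 in zygotene. The 28 nt Gm21269 tag, which ends at the same base, had 7856 reads in pachytene and none in zygotene. The 1700042G15Rik tag had 5206 reads in pachytene and 4 in zygotene, and the Gm21221 tag had 4484 in pachytene and 1 in zygotene. Apart from the 1700001L05Rik tag, these lncRNA tags were nearly absent from zygotene reads, and the order was the opposite for the 3′ UTR tags. Each tag was chosen for its reads in 1 library, so these directions follow in part from the choice. They are no result on lncRNA against 3′ UTR tags. The Ppp1r7 tag, from a regulatory subunit of protein phosphatase 1, had 71 reads in pachytene and 1735 in zygotene. The Gm4631 tag had 28 reads in pachytene and 1456 in zygotene. All 4 of these 3′ UTR tags were rare in pachytene, also the Tsc1 tag, from the gene of the tumour suppressor hamartin, with 27 reads in pachytene and 777 in zygotene. The Rhbdd2 tag, from a rhomboid-domain gene, had 55 reads in pachytene and 691 in zygotene.

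The first question was how much of each library had the size of a piRNA. Reads of 26 to 28 nt made up 31.4% of the pachytene library (7144796 reads) and 16.97% of the zygotene library (2599407 reads). Reads of 29 to 32 nt made up 38.4% of the pachytene library (8748560 reads) and 13.7% of the zygotene library (2095815 reads). The longer class differed more: for each read of 26 to 28 nt there were 1.22 reads of 29 to 32 nt in pachytene and 0.806 in zygotene. The exact 95% binomial (Clopper-Pearson) interval of the 26 to 28 nt share ran from 31.338 to 31.376% in pachytene and from 16.952 to 16.989% in zygotene. These and all later intervals cover counting error only, since amplified reads without molecular identifiers are not independent molecules. The most frequent lengths in pachytene were 30 nt (13.51% of reads), 26 nt (11.45%) and 27 nt (11.37%). In zygotene they were 23 nt (18.22%) and 22 nt (12.76%), the sizes of miRNAs, with a lower peak at 27 nt (6.46%). The direction for the shorter class depended on the unit: counted over distinct tags, 26 to 28 nt tags were 28.7% of pachytene tags and 36.7% of zygotene tags, while 29 to 32 nt tags were 35.9% of pachytene tags and 20.8% of zygotene tags.

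**Figure D1:**
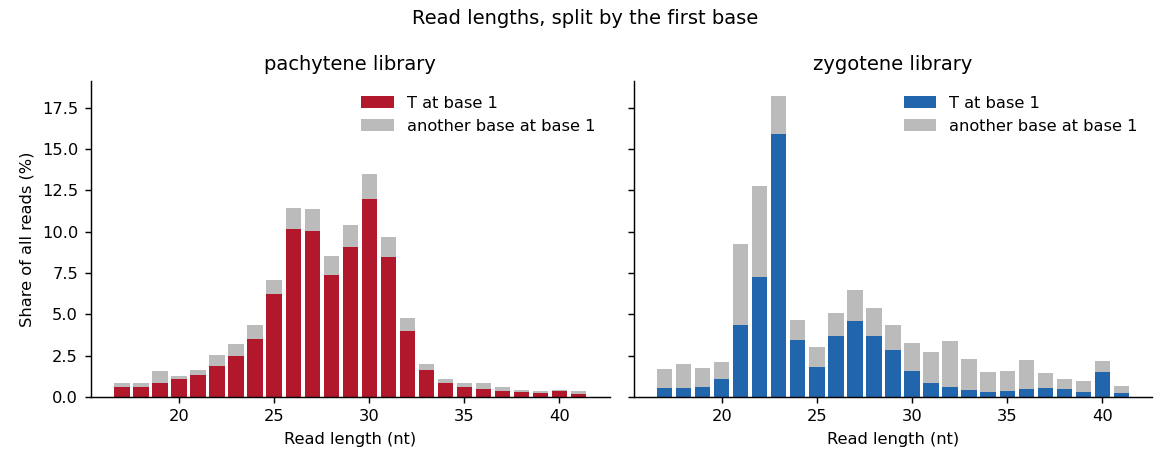
Share of all reads (y axis, percent) at each read length (x axis, nt) in the pachytene library (left) and the zygotene library (right), with reads that begin with T drawn apart from reads that begin with another base. Pachytene reads centre on 26 to 32 nt and mostly begin with T, and zygotene reads peak at 23 nt with 18.22% of reads.

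The first base separated the libraries most clearly in the longer class. T stood first in 87.9% of pachytene and 70.7% of zygotene reads of 26 to 28 nt, and in 87.4% of pachytene and 42.4% of zygotene reads of 29 to 32 nt. Length by length, the T share stayed high in pachytene, with 88.5% at 26 nt and 83.4% at 32 nt. In zygotene it was 72.6% at 26 nt and 17.02% at 32 nt. A part of the zygotene shortfall lay in a few sequences. The 10 most-read zygotene tags of 29 to 32 nt without a first T shared 6 starts of 18 nt, and reads with these starts were 0.583% of the class in pachytene and 25.0% in zygotene. At 32 nt alone they were 3.0002% of pachytene and 53.4% of zygotene reads. Which RNA these starts come from was not tested, so their reads cannot be taken as piRNAs. Without them, the T share of the longer class was 87.9% in pachytene and 56.6% in zygotene, so most of the gap remained. Over distinct tags the gap between the libraries in the shorter class nearly closed, to 1.30 percentage points.

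The tenth base differed less, and its direction was not stable. A stood at base 10 in 28.1% of pachytene and 28.7% of zygotene reads of 26 to 28 nt, and in 33.8% of pachytene and 24.5% of zygotene reads of 29 to 32 nt. Without the 6 starts, the shares in the longer class were 34.0% in pachytene and 32.7% in zygotene. Counted over distinct tags, the share of the longer class was lower in pachytene, by 2.59 percentage points. Reads with and without a first T moved in opposite directions. Among 29 to 32 nt reads with T first, A stood at base 10 in 32.8% of pachytene and 38.2% of zygotene reads. Among those without T first, A stood at base 10 in 40.97% of pachytene and 14.4% of zygotene reads. Without the 6 starts, these shares were 43.0% in pachytene and 25.5% in zygotene.

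Slicing of a piRNA precursor is known to leave a by-product of 19 nt just ahead of the new piRNA, so tags of 19 nt were taken on their own. They were 1.59% of pachytene reads (362064) and 1.74% of zygotene reads (266374). Against the mean of the 18 and 20 nt counts, the 19 nt count was 1.49 times as high in pachytene and 0.845 times as high in zygotene, so the pachytene length profile had a local peak at 19 nt and the zygotene profile did not. T stood first in 53.7% of pachytene and 32.8% of zygotene 19 nt reads. Most of these reads could also be the start of a longer tag of the same library: 64.8% in pachytene and 63.7% in zygotene repeated the first 19 bases of a 26 to 32 nt tag. Reads sharing their start with a miRNA were 0.550% of pachytene and 9.41% of zygotene 19 nt reads.

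An example from Gm47652 shows the arrangement that slicing leaves, with capitals marking the first 10 bases of each piRNA-sized tag, which are complementary to each other. It was chosen for its read counts among pachytene tags with both neighbours.
19 nt tag (chr9:37334123-37334141, minus strand): attgatatcctaggccctg
tag that begins where it ends (chr9:37334095-37334122, minus strand): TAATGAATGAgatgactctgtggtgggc
tag on the opposite strand (chr9:37334113-37334142, plus strand): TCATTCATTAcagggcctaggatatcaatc

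The 19 nt tag had 95 reads in pachytene and none in zygotene. The tag after it had 32 reads in pachytene and 2 in zygotene, and the tag on the opposite strand had 48 in pachytene and 19 in zygotene. Such neighbours were counted around all 19 nt tags that lay in transcripts, 15667 in pachytene and 9047 in zygotene. A piRNA-sized tag began 19 nt downstream on the same strand for 22.8% of them in pachytene (95% interval 22.119 to 23.439%) and 8.44% in zygotene (7.8797 to 9.0368%). A piRNA-sized tag began on the opposite strand at 28 nt, where a slicing partner would start, for 17.4% in pachytene and 4.57% in zygotene. Both neighbours were present for 1878 tags in pachytene (12.0%) and 201 in zygotene (2.22%). The share at any distance also depends on how densely tags cover transcripts, and pachytene had more tags. The median over the 10 distances on each side of the 19 nt position was 13.4% in pachytene and 4.996% in zygotene, so the peak stood 1.70 times over its surroundings in pachytene and 1.69 times in zygotene. On the opposite strand the peak stood 2.09 times over its surroundings in pachytene and 2.58 times in zygotene. Counted over reads in place of tags, the peak on the same strand stood 2.16 times over its surroundings in pachytene and 1.68 times in zygotene, and that on the opposite strand 2.46 times in pachytene and 3.27 times in zygotene. The slicing positions thus stood out in both libraries, and which library had the higher ratio on the same strand depended on the unit counted.

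**Figure D2:**
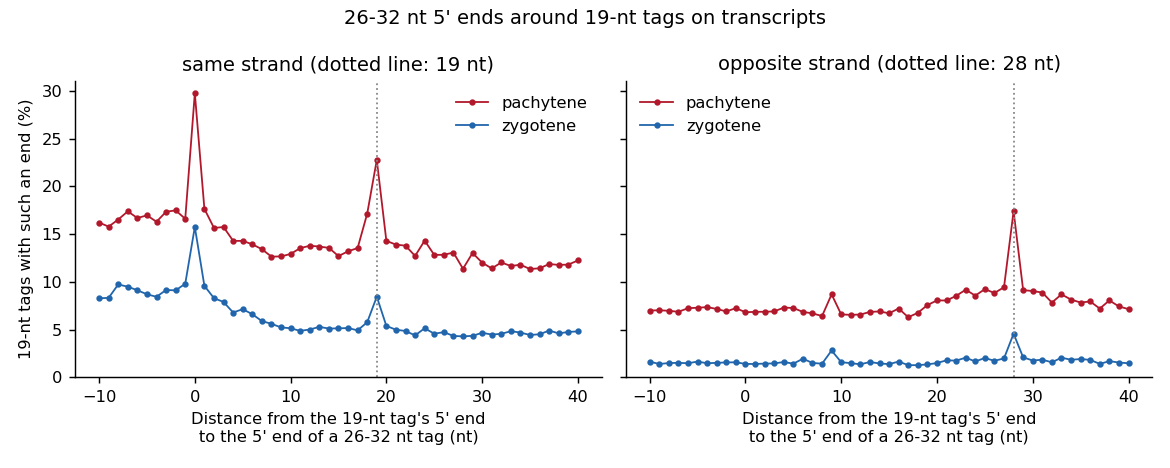
Share of 19 nt tags on transcripts (y axis, percent) with a 26 to 32 nt tag whose 5′ end lies at the distance on the x axis (nt), on the same strand (left) and on the opposite strand (right), for pachytene and zygotene. Dotted lines stand at 19 and 28 nt, where both libraries have a local peak, at 22.8% in pachytene and 8.44% in zygotene on the same strand.

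Overlaps of 10 nt between piRNA-sized tags on opposite strands, the pairing that cycles of slicing leave, were counted over the piRNA-sized tags that lay in transcripts, which are a part of each class. They were 191780 tags of 26 to 28 nt in pachytene and 175708 in zygotene, and 160122 tags of 29 to 32 nt in pachytene and 80501 in zygotene. Of these placed tags of 26 to 28 nt, 4.51% had such a partner in pachytene and 1.87% in zygotene, or 2.18 times the neighbouring distances in pachytene and 2.64 times in zygotene. Of the placed tags of 29 to 32 nt, 7.89% had a partner in pachytene and 3.18% in zygotene, or 2.21 times the neighbouring distances in pachytene and 2.61 times in zygotene. Counted over the reads of placed tags, the partnered share of the longer class was 18.1% in pachytene and 6.94% in zygotene. Against the neighbouring distances this was 3.06 times in pachytene and 3.19 times in zygotene. For the shorter class the ratio over reads was 3.55 in pachytene and 3.77 in zygotene.

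Few piRNA-sized tags were abundant at both stages. Of 8551 tags of 26 to 32 nt with 10 RPM or more (RPM, reads scaled to a library of 1000000 reads) in either library, 6865 were at least 4-fold higher in pachytene, which is 80.3% of those tested, and 1530 were at least 4-fold lower, which is 17.9%. The remaining 156 tags differed by less. At least 10 RPM was reached by 7032 tags in pachytene and by 1650 in zygotene. Only 131 reached it in both, 1.86% of the pachytene tags and 7.94% of the zygotene tags. Scaled to reads of 26 to 32 nt in place of all reads, 16982 tags were tested and the split was 10499 higher and 6172 lower in pachytene. Most of the higher tags were not seen in zygotene: 4782 of the 6865 higher tags (69.7%) had 0 zygotene reads. Against a floor of 3 reads, which is 0.196 RPM in zygotene, the median of these was at least 79.8-fold higher in pachytene and the highest, at 524.59 RPM, at least 2678-fold. Among all distinct tags of 26 to 32 nt, 70079 occurred in both libraries, and they held 20.99% of pachytene and 50.8% of zygotene reads of that size.

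By the choice of the tags, the higher ones held 21.5% of all pachytene and 0.0860% of all zygotene reads, and the lower ones 0.536% of all pachytene and 9.91% of all zygotene reads. The first base, base 10 and the place in transcripts were not used in the choice. Among the higher tags, T stood first in 94.0%, A at base 10 in 33.4%, and 85.5% lay in none of the GENCODE transcripts. Of all the higher tags, 9.64% lay in lncRNA genes and 2.27% in protein-coding genes. Among the lower tags, T stood first in 53.7%, A at base 10 in 27.6%, and 49.4% lay in none of the GENCODE transcripts. Of all the lower tags, 24.9% lay in protein-coding genes, 6.73% in lncRNA genes, 6.60% in structural RNAs, and 9.74% in more than 10 genes. Nuclear tRNA genes and the ribosomal RNA precursor are not among the transcripts searched. Their fragments would count among the tags in none, and the 6.60% leaves them out. Of the tags in protein-coding genes, the 3′ UTR held 78.2% of the higher and 75.1% of the lower ones, so this share did not set the lower tags apart. Most of the lower tags were still read in pachytene, and 77 of the 1530 had 0 pachytene reads.

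The neighbouring stages placed these tags in time. Of the tags higher in pachytene, 0.0291% reached 10 RPM in leptotene and 49.2% in round spermatids. By size, 23.1% of the higher 26 to 28 nt tags and 71.2% of the higher 29 to 32 nt tags reached 10 RPM in round spermatids. Of the tags lower in pachytene, 60.7% reached 10 RPM in leptotene and 3.59% in round spermatids. The longer pachytene tags thus reached this level in the round spermatid library more often than the shorter ones.

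**Figure D3:**
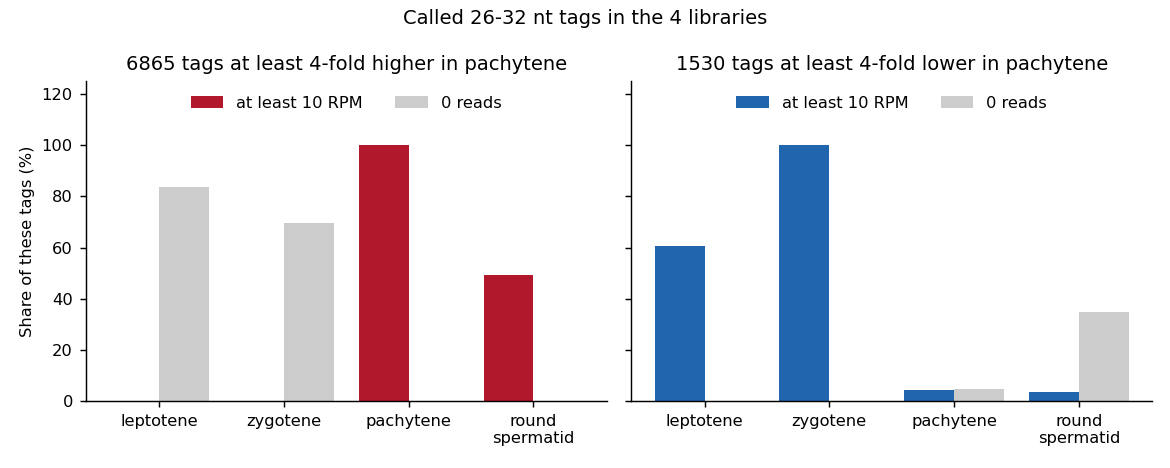
Share of tags (y axis, percent) that reached at least 10 RPM, and share with 0 reads, in the leptotene, zygotene, pachytene and round spermatid libraries (x axis, in order of stage), for the 6865 tags at least 4-fold higher in pachytene (left) and the 1530 at least 4-fold lower (right). By construction each set stands at 100% in the library that chose it, and 49.2% of the higher tags reached 10 RPM in round spermatids.

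Where the same 5′ end occurred in both libraries, the tags were longer in pachytene. For 3089 starts of 24 nt with at least 20 reads in each library, the median share of 29 to 32 nt reads was 56.1% in pachytene and 34.3% in zygotene. The share was higher in pachytene for 1942 starts (62.9%) and lower for 929, with a median shift of 5.59 percentage points. The shift was larger for starts with T, though this difference was not tested: among 2313 of these the median share was 51.6% in pachytene and 27.96% in zygotene, with a median shift of 8.22 points. Among 776 starts without T, the medians were 69.9% in pachytene and 60.4% in zygotene and the median shift was 0.175 points. Pooled over the reads of all starts, the share was 57.6% in pachytene and 61.1% in zygotene, the opposite direction, and pooled over starts with T it was 54.0% in pachytene and 40.2% in zygotene.

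The next question was which transcripts the piRNA-sized reads came from. Reads beginning with T were used, a choice meant to leave out fragments of other RNAs, which it did only in part. In zygotene, structural RNAs were 1.41% of 26 to 28 nt reads with T first and 6.69% of those without. In the longer zygotene class they were 3.84% with T first and 3.85% without, so nothing was gained there. In the longer pachytene class they were 0.102% with T first and 1.60% without. Of 26 to 28 nt reads with T first, 4.74% in pachytene and 44.2% in zygotene lay in protein-coding genes, and 9.58% in pachytene and 3.97% in zygotene lay in lncRNA genes. Of 29 to 32 nt reads with T first, 3.83% in pachytene and 36.3% in zygotene lay in protein-coding genes, and 6.67% in pachytene and 4.06% in zygotene lay in lncRNA genes. In the shorter class 82.7% of pachytene and 42.0% of zygotene reads lay in no transcript, and in the longer class 86.3% of pachytene and 46.4% of zygotene reads. Only spliced transcripts of GENCODE were searched, so reads from introns and from unannotated precursors are among those without a transcript. The same holds for reads from nuclear tRNA genes and from the ribosomal RNA precursor. Within protein-coding genes the 3′ UTR held 64.3% of pachytene and 73.3% of zygotene reads of 26 to 28 nt, and 74.6% of pachytene and 72.6% of zygotene reads of 29 to 32 nt.

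Gene by gene, lncRNAs were higher in pachytene about as often as not, and most messenger RNAs were lower. Of 1165 genes that reached 10 RPM of 26 to 32 nt sense reads beginning with T in either library, 119 were at least 4-fold higher in pachytene (10.2%) and 826 at least 4-fold lower (70.9%), and the median log2 ratio was -3.23. Among 128 lncRNA genes, 63 were higher and 50 lower in pachytene, with a median log2 ratio of 1.56. Among 1017 protein-coding genes, 49 were higher and 766 lower, with a median of -3.39. Reads were also more concentrated in pachytene: the 10 genes with most reads held 56.2% of all gene-assigned reads in pachytene and 14.9% in zygotene. All gene levels that follow are RPM of such reads, not divided by transcript length, so they are compared between libraries and not between genes.

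Of the 5 genes with most pachytene reads, 4 lie in pairs of lncRNAs on chromosomes 17 and 7, with coordinates in GRCm38. Gm49794 (chr17:27354111-27367492, plus strand) had 8961 RPM in pachytene and 80.1 RPM in zygotene. Gm10505 (chr17:27325035-27344833, plus strand), which ends 9278 bases before it, had 4299 RPM in pachytene and 37.7 RPM in zygotene. Together this pair held 28.6% of all lncRNA gene reads in pachytene and 2.84% in zygotene. Gm21269 (chr7:73816546-73838898, plus strand) had 8096 RPM in pachytene and 6.46 RPM in zygotene, a log2 ratio of 10.29. Gm10619 (chr7:73781429-73816503, minus strand), read away from it on the other strand, had 2134 RPM in pachytene and 1.57 RPM in zygotene, a log2 ratio of 10.41. Their starts in GENCODE lie 43 bases apart, and the pair held 22.03% of lncRNA gene reads in pachytene and 0.194% in zygotene.

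The 300 bases around the start of Gm10619, from 250 before to 50 after it, are shown as the window with most matches among those of the leading genes. They are taken from RefSeq (GRCm38.p6), on the minus strand, and capitals mark matches to the core of the MYB motif, searched on both strands as any of 4 hexamers, namely CAACTG or otherwise CAACGG or otherwise TAACTG or otherwise TAACGG.
Gm10619 promoter (chr7:73816454-73816753): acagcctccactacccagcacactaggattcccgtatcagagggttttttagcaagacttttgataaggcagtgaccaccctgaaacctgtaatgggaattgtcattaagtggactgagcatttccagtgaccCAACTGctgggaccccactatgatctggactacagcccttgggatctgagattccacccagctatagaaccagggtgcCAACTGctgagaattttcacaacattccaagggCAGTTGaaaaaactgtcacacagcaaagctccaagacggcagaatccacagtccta

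The window holds 3 matches, and 0.743% of 32851 promoter windows of the same length hold at least 3. A single match is common: 28.3% of all windows have at least 1. Of the 10 genes with most pachytene reads, 8 have a window in the table, and of their 9 windows 8 hold a match. The table places the window of Gm21269 at chr7:73825674-73825973, away from the start in GENCODE, and it holds 1 match. A match is a description of letters, not a site or a cause.

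Other genes among the 10 leading pachytene genes were also far higher there than in zygotene. 1700020N18Rik had 1412 RPM in pachytene and 2.22 RPM in zygotene, and 1700042G15Rik had 1181 RPM in pachytene and 0.849 RPM in zygotene. AC140207.2 had 2107 RPM in pachytene and 40.1 RPM in zygotene, 1700029M20Rik had 1449 RPM in pachytene and 23.7 RPM in zygotene, and D130017N08Rik had 992 RPM in pachytene and 13.1 RPM in zygotene. The exception was 1700001L05Rik, the only gene among the 10 leading genes of both libraries, with 3396 RPM in pachytene and 491 RPM in zygotene. Its level was 254 RPM in leptotene and 4101 RPM in round spermatids, so it was already a source of these reads before pachytene.

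The leading zygotene genes were mostly protein-coding and lower in pachytene. D10Wsu102e had 407 RPM in pachytene and 1884 RPM in zygotene, a log2 ratio of -2.21, which was -1.51 when tags found in up to 10 genes were shared among them. Tmem245, a membrane protein gene, had 25.4 RPM in pachytene and 936 RPM in zygotene, and Abl2, which encodes a tyrosine kinase, had 52.6 RPM in pachytene and 645 RPM in zygotene. Rab11fip4, an effector of the recycling GTPase Rab11, had 29.5 RPM in pachytene and 515 RPM in zygotene. Gabpb2, a subunit of the transcription factor GABP, had 26.9 RPM in pachytene and 485 RPM in zygotene. Cbx5, which encodes the heterochromatin protein HP1 alpha, had 70.7 RPM in pachytene and 482 RPM in zygotene. Trim71, which encodes the RNA-binding protein LIN41 of stem cells and was picked out after its values were seen, had 4.39 RPM in pachytene and 275 RPM in zygotene. The lncRNA AU020206 was low in pachytene as well, with 13.4 RPM there and 551 RPM in zygotene.

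Some messenger RNAs did not follow the majority. Cbl, a ubiquitin ligase gene, had 906 RPM in pachytene and 440 RPM in zygotene, a log2 ratio of 1.04 and less than a 4-fold difference. Its reads were longer in pachytene, where 59.0% were 29 to 32 nt, against 19.7% in zygotene. Among genes picked out after their values were seen, Nemp1, a nuclear envelope protein gene, was at least 4-fold higher, with 797 RPM in pachytene and 113 RPM in zygotene. Tbl2 had 543 RPM in pachytene and 49.2 RPM in zygotene, and Asb1, which encodes a SOCS-box protein, had 504 RPM in pachytene and 62.7 RPM in zygotene. In round spermatids Nemp1 reached 1445 RPM and Tbl2 2204 RPM.

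**Figure D4:**
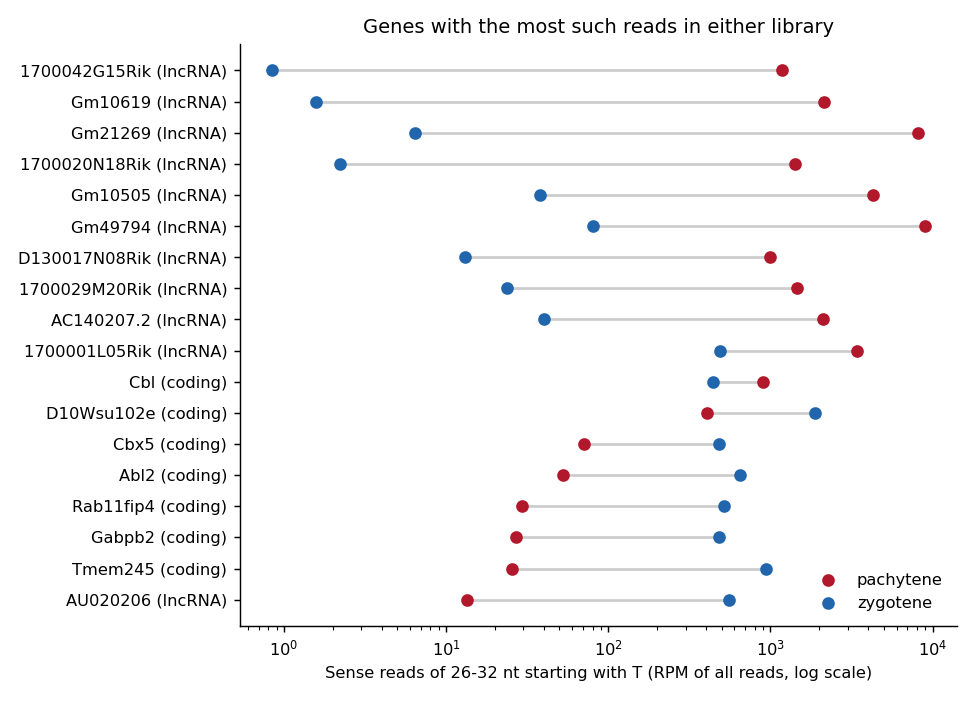
RPM of 26 to 32 nt sense reads beginning with T (x axis, log scale) for genes among the 10 with most such reads in each library (y axis, 18 genes), in pachytene and in zygotene. The lncRNAs at one end lie further right in pachytene, such as Gm21269 at 8096 RPM in pachytene and 6.46 RPM in zygotene, and the protein-coding genes are mostly further right in zygotene.

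The length shift was seen within genes as well. Of 351 genes with at least 100 such reads in each library, the share of 29 to 32 nt reads was higher in pachytene in 287 and lower in 64. Its median over genes was 42.4% in pachytene and 23.0% in zygotene. In the 308 protein-coding genes among them the median was 40.8% in pachytene and 22.2% in zygotene, so the messenger RNAs that had reads in both stages also had longer reads in pachytene.

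The miRNAs were matched by their first 18 bases to RefSeq mature sequences. For 137 GENCODE hairpin arms without one, that of miR-34c-5p included, the start most read over both libraries was used. The sequences below, from RefSeq (GRCm38.p6), are those on which the comparison turns, grouped by shared seeds, with the seed (bases 2 to 8) in capitals. The first miRNAs were higher in pachytene per miRNA read.
miR-449a-5p: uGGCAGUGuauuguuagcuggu
miR-449c-5p: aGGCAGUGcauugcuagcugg
miR-34b-3p: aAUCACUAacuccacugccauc
miR-34c-3p: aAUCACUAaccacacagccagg
miR-191-5p: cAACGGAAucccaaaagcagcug
miR-425-5p: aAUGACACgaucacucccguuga
These were lower in pachytene, with the seed of miR-125 in miR-351-5p and seeds of the miR-15 and miR-16 kind in miR-322-5p and miR-503-5p.
miR-351-5p: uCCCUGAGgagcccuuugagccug
miR-322-5p: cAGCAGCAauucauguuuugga
miR-503-5p: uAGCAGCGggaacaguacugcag
miR-99a-5p: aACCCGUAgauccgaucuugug
miR-99b-5p: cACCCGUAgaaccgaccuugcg
miR-202-5p: uUCCUAUGcauauacuucuuu
let-7e-5p: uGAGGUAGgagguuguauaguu
The most-read miRNAs of the miR-506 family on the X chromosome were these.
miR-741-3p: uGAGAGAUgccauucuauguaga
miR-871-3p: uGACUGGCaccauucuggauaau

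As a whole, miRNAs were a small part of the pachytene library and a large part of the zygotene library. Reads assigned to miRNAs were 408226 in pachytene (1.79% of all reads) and 4650911 in zygotene (30.4%), a share 16.9 times as high in zygotene. For this reason the scaling sets what can be said of single miRNAs. Entries were taken where either library had 100 reads or more, which left 299. Scaled to all reads, 17 of them passed 4-fold in favour of pachytene (5.69%) and 274 in favour of zygotene (91.6%), with a median log2 ratio of -4.43. Scaled to miRNA reads, 25 were higher (8.36%) and 41 lower (13.7%), with a median of -0.34. All 17 entries higher per all reads were also higher per miRNA reads, and all 41 lower per miRNA reads were also lower per all reads. The ratios below are per miRNA reads unless said otherwise. The 5 leading miRNAs held 54.7% of miRNA reads in pachytene and 56.8% in zygotene. The fifth in pachytene was miR-30c-5p, with 3.42% in pachytene and 1.81% in zygotene.

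The family of miR-34 and miR-449, known from meiotic and ciliated cells, stood highest among the listed families. All 5 members with enough reads were at least 4-fold higher in pachytene under both scalings, with a median log2 ratio of 7.82. The family held 18.3% of miRNA reads in pachytene and 0.130% in zygotene. The most-read pachytene miRNA, miR-34c-5p, had 69324 reads in pachytene and 5776 in zygotene, and so made up most of the family's reads. miR-449a-5p had 1806 reads in pachytene and 69 in zygotene, a log2 ratio of 8.22 with an exact 95% interval of 7.87 to 8.59. miR-449c-5p, which has the same seed, had 525 reads in pachytene and 26 in zygotene, and it had 0 reads in leptotene and 2 in round spermatids. miR-34b-3p had 2691 reads in pachytene and 136 in zygotene, and miR-34c-3p had 481 in pachytene and 42 in zygotene. Of the 4 libraries, miR-449c-5p had its highest count in pachytene, while miR-34b-3p had 7764 reads in round spermatids.

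The 10 entries with the highest ratios were none of these families. They were miR-12204-5p, miR-7214-5p, miR-7217-3p, miR-7233-3p, miR-7242-3p, miR-7232-3p, miR-7210-3p, miR-7210-5p, miR-7230-5p and miR-468-3p, and miR-7223-5p came next. Together these 11 entries had 7197 reads in pachytene, 15 in zygotene and 0 in leptotene. miR-7214-5p had 2731 reads in pachytene and 7 in zygotene, and miR-7217-3p had 1921 in pachytene and 6 in zygotene. Reads with their starts also occurred at piRNA size. In pachytene, reads of 27 to 32 nt were between 3.40 and 92.6% of all reads with these 11 starts. Over the other 49 entries with at least 1000 pachytene reads the median was 0.0624%, and 2 of them exceeded 10%. Most of the 11 entries had fewer than 1000 pachytene reads, so the groups also differ in level. The entry miR-7217-3p lies within Gm49794, and miR-7214-5p lies within Gm49793 (chr17:27308316-27318696, minus strand), a gene with 468.5 RPM of piRNA-sized reads in pachytene and 5.68 RPM in zygotene. Thus 2 of the 25 higher entries lay in a gene whose piRNA-sized reads were at least 4-fold higher in pachytene, while none of the 41 lower and none of the 233 remaining entries did. The share of these reads that are miRNAs was not tested. Without the 11 entries, 14 higher miRNAs were left.

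The pair of miR-191 and miR-425, cut from a single host transcript, showed what the scaling does. miR-191-5p made up 9.11% of miRNA reads in pachytene and 0.611% in zygotene, a log2 ratio of 3.90, yet per all reads its log2 ratio was -0.18. miR-425-5p, with 987 reads in pachytene and 264 in zygotene, was higher on both scales, with log2 ratios of 5.41 per miRNA reads and 1.33 per all reads. Its reads per all reads were thus less than 4-fold apart. The autosomal miR-17 and miR-106b clusters, known from dividing cells, had 2 of 8 members higher, against 8.36% of all 299 entries. They were miR-18a-5p with a log2 ratio of 2.66 and miR-19a-3p with 2.32. Per all reads both were lower in pachytene, with log2 ratios of -1.42 for miR-18a-5p and -1.76 for miR-19a-3p.

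The X chromosome is silenced in pachytene spermatocytes, and its miRNAs were read as 2 lists. Of 28 measured entries of the miR-506 family, none was at least 4-fold higher or lower per miRNA reads, and the median log2 ratio was -0.54. The family held 34.8% of miRNA reads in pachytene and 58.1% in zygotene, led by miR-741-3p with 15.0% in pachytene and 28.7% in zygotene and by miR-871-3p with 10.2% in pachytene and 14.6% in zygotene. miR-470-5p, also among the 5 leading miRNAs of zygotene, held 1.99% in pachytene and 4.64% in zygotene. Per all reads all 28 were at least 4-fold lower in pachytene, with a median of -4.63. So were 91.6% of all 299 entries, whose median was -4.43, so this count does not set the family apart. Of 20 entries outside the family with a copy on the X chromosome, 6 were at least 4-fold lower per miRNA reads, and the median was -1.36. The share lower over all 299 entries was 13.7%. The list shares miR-92a-3p, with 12260 of its 16678 pachytene reads, with the autosomal miR-17 list, since copies on chromosomes 14 and X give the same mature sequence. The lower entries included miR-322-3p, with 12 reads in pachytene and 2455 in zygotene, miR-20b-5p, with 1 in pachytene and 138 in zygotene, and miR-503-5p, with 1 in pachytene and 320 in zygotene. miR-351-5p had 27 reads in pachytene and 4535 in zygotene, and miR-322-5p had 11 in pachytene and 640 in zygotene. miR-322, miR-351 and miR-503 lie in one cluster on the X chromosome. miR-1198-5p, X-linked but outside the list, had 1 read in pachytene and 106 in zygotene. In leptotene miR-351-5p had 868 reads.

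Other lower miRNAs lay on autosomes. let-7e-5p had 9 reads in pachytene and 1218 in zygotene, a log2 ratio of -3.57, and was the only one of 6 let-7 entries past the fold, while let-7g-5p, with the same seed, had 6905 reads in pachytene and 27889 in zygotene, a log2 ratio of 1.496 that turned to -2.59 per all reads. miR-99b-5p, from the same cluster on chromosome 17 as let-7e, made up 0.401% of miRNA reads in pachytene and 3.34% in zygotene, and its other arm, miR-99b-3p, had 1 read in pachytene and 153 in zygotene. miR-335-3p had 26 reads in pachytene and 2848 in zygotene. miR-99a-5p, on chromosome 16 and with the same seed as miR-99b-5p, made up 1.17% of miRNA reads in pachytene and 5.29% in zygotene. miR-434-5p, from the imprinted Dlk1-Dio3 region, had the lowest ratio of all entries, with 1 read in pachytene and 1016 in zygotene, a log2 ratio of -6.48 with an exact 95% interval of -11.78 to -4.00. Of the list drawn from that region, which does not hold this arm, 2 of 10 entries were past the fold. In the miR-290 cluster, known from pluripotent cells, 2 of 8 entries were lower, with 1 read in pachytene and 126 in zygotene for miR-290a-5p. None of 3 entries of the cluster of miR-183, miR-96 and miR-182 and none of 5 of the list of miR-15, miR-16, miR-195 and miR-497 was past the fold. For these short lists the share to set beside the counts is the 13.7% of all 299 entries that were lower.

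Small RNA libraries hold few messenger RNA markers of stage, so the labels could be set only against small RNAs, of which the family of miR-34 and miR-449 and the long piRNAs are known from pachytene cells. Markers of other testis cells were present in both libraries. The Sertoli or gonadal somatic list of 4 entries had 173 reads in pachytene and 15285 in zygotene, most of them from miR-202-5p. Of 3 measured entries 1 was lower, miR-202-5p with 142 reads in pachytene and 14870 in zygotene. Another, miR-204-5p, with 26 reads in pachytene and 235 in zygotene, lay above 0 per miRNA reads. The mesenchymal list of 10 entries held 3.28% of miRNA reads in pachytene and 11.9% in zygotene, and 5 of 10 were lower, miR-99a-5p and miR-10b-5p included, which other cells also express. miR-10b-5p held 0.663% of miRNA reads in pachytene and 3.64% in zygotene. Endothelial entries had 1 of 2 lower, epithelial entries 1 of 6, blood entries none of 2, and muscle, liver or neural entries none of 3. Over all 299 entries 13.7% were lower, and these last lists are too short to be set against that share. The defining markers miR-202-5p and miR-199a-5p were above the floor of 3 reads in both libraries, with 95 reads of miR-199a-5p in pachytene and 7853 in zygotene. The third, miR-214-3p, had 202 reads in zygotene and 3 in pachytene, which is the floor and cannot be told from 0. The part of such cells in the lower miRNA share and in the tags lower in pachytene was not tested.

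**Figure D5:**
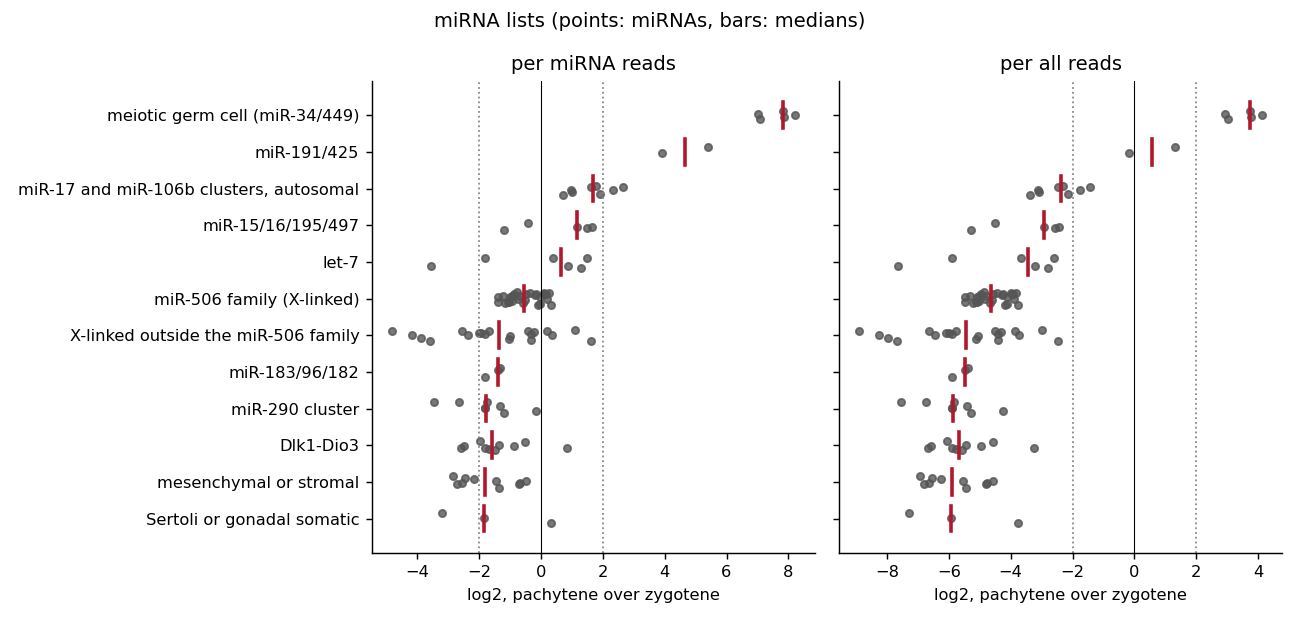
log2 ratio of pachytene over zygotene (x axis) for the miRNAs of each list with 100 reads or more in either library (y axis, 1 row a list), per miRNA reads and per all reads in separate panels, with points for miRNAs, bars for medians and dotted lines at 4-fold. The list of miR-34 and miR-449 lies above 4-fold in both panels, with a median of 7.82 per miRNA reads, and most other points lie below 0 per all reads.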

How the data were processed

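The authors deposited, per the labels' protocols, counts of reads for each distinct small RNA sequence from total RNA libraries. The submitters' processing notes name Bowtie and GRCm38 without a role, and how reads were trimmed is not given in the sources used here. The counts were used as deposited, and shares and RPM (reads scaled to a library of 1000000) refer to all reads of a library unless said otherwise. Tags were matched without mismatch to spliced GENCODE M21 transcripts, since no genome was used here. Gene reads came from tags in a single gene. Reads of 18 to 26 nt counted for a miRNA when their first 18 bases equalled those of a RefSeq or GENCODE entry (1804 entries, of which 1667 from RefSeq). The start of a GENCODE entry was the most-read one in its hairpin arm over both libraries, so it was taken from these data. A tag needed 10 RPM, a gene 10 RPM and a miRNA 100 reads in 1 library, and a call meant a 4-fold ratio with a count of 0 set to 3. With 1 library a side no p-value was computed. Intervals are exact binomial at 95%. The design foresaw windows of the genome, and transcripts took their place. The genes named are the 10 with most reads in each library, the miRNAs the 5 most abundant in each, the 10 highest and 10 lowest ratios and the listed families, and exceptions are stated, with 1 gene not reported here. Members and lists were chosen with earlier results of these data known. The 4-fold calls of tags and the interval of a ratio were tested on simulated counts, and the matching of tags was not. Python 3.11.15, numpy 2.4.6, pandas 2.3.3, scipy 1.17.1 and numba 0.67.0 were used. A count of 0 allows up to 0.132 RPM in pachytene and 0.196 RPM in zygotene.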

Additional observations from a re-analysis of the deposited data

How the results depend on the processing

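All differences here are pachytene minus zygotene, in percentage points of reads, or counts of features at least 4-fold higher or lower in pachytene. Over distinct tags the 26 to 28 nt share changed direction (-8.07, against 14.4 over reads), and so did A at base 10 of 29 to 32 nt tags (-2.59, against 9.32). Over distinct tags the other differences were 15.1 for the 29 to 32 nt share, -0.41 for 19 nt, 1.30 and 16.3 for a first T in the shorter and longer class, and -1.88 for A10 in the shorter class. Without miRNA reads the shares of 26 to 28, 29 to 32 and 19 nt differed by 7.74, 19.4 and -0.65. Without tags read once the values were 15.1 and 25.2 for the 2 shares, 18.5 and 46.6 for a first T, and 9.79 for A10 in the longer class. Without the 6 leading starts that lack T they were 14.1 and 27.5, 15.6 and 31.3, and -1.20 and 1.34 for A10. Among tags in sense in a transcript a first T differed by 8.34 and 21.03, and A10 by -0.32 and 1.54. At 5 RPM 15705 tags were higher and 3387 lower, at 20 RPM 2827 and 732, and scaled to 26 to 32 nt reads 10499 and 6172. The median shift at shared starts was 4.95 with 50 reads and 6.21 with starts of 22 nt. For tags in at most 1 gene the protein-coding share differed by -38.8 and -29.5 and the lncRNA share by 5.72 and 2.74, and without tags read once by -41.6 and -34.1 and by 5.94 and 2.79. Per miRNA reads 66 miRNAs were higher with a minimum of 10 reads, 7 with 1000 reads (17 lower) and 61 at 2-fold (99 lower), and 15 were lower when the full sequence was required, where 166 entries were tested. The cause of these changes was not tested, apart from the fewer or more features each setting admits. Gene counts stayed within 1.5 times under the 4 settings tried. Of 148 values of single genes and miRNAs under these settings, which leave out the scaling to all reads, 37 moved by more than counting error and none changed direction. Scaled to all reads, 20 of 299 miRNA entries lay above 0, against 122 scaled to miRNA reads. Matching tags to the genome was not run. No paired analysis was possible because each stage has 1 library. The 3 reads that a count of 0 allows limit the lowest level that can be told from 0.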
